A study of Homo sapiens with 30 samples.

Results

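The DNA replication genes described here are 34 genes that copy the genome or supply its building blocks: the MCM helicase and its activators, the proteins that license and fire origins, the replicative polymerases with primase and RPA, the sliding clamp with its loader, flap nuclease and ligase, the enzymes of nucleotide supply, and the regulators cyclin E and E2F1. A gene entered when the symbol annotated on the array was exactly the listed one. Each was read on the probe set with the highest mean over the 30 arrays. All 34 were measured, out of 11963 genes tested on the array, and none was removed by a filter on low values.

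The cells were human small airway epithelial (SAE) cells bought from Lonza, plated in flasks and exposed to multi-walled carbon nanotubes (MWCNT) or to titanium dioxide nanobelts (TiO2-NB), each at 10 or 100 µg/ml. Exposure lasted 1 or 24 h, and unexposed flasks (0 µg/ml) were collected at each time. The 10 groups were therefore the control, MWCNT 10, MWCNT 100, TiO2-NB 10 and TiO2-NB 100 at 1 h and the same 5 conditions at 24 h, with 3 arrays each. The series calls the 3 samples of a group biological replicates. The labels name no donor, and nothing there says whether the flasks were seeded from separate cultures, so the p-values measure only the spread between these samples. The labels give no dates of extraction or scanning, so the exposure time and any batch that went with it cannot be told apart.

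In dividing cells, ORC1, CDC6 and CDT1 load rings of MCM2 to MCM7 onto DNA before S phase, and the kinase CDC7, together with cyclin-dependent kinases, turns the loaded rings into active helicases by adding CDC45 and the GINS complex. Polymerase alpha and primase then start each strand, polymerases delta and epsilon extend it on the PCNA clamp, and FEN1 and LIG1 finish the lagging strand. Many of these genes are textbook targets of E2F transcription factors, which cyclin E and its kinase release from the retinoblastoma protein, and airway epithelial cells grown on plastic express them while they proliferate.

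Since many of the genes are known E2F targets, their promoters were searched for a pair of short E2F-type strings. RefSeq promoter sequences (GRCh38.p14, 250 bases before to 50 after each annotated start) were matched by symbol for 31 of the 34 genes, giving 40 windows of 300 bases. MCM4, MCM5 and CCNE2 were not matched. The strings searched were TTCCCGC and TTGGCGC, on both strands, and neither contains the other. At least 1 of them lay in 25 of the 40 windows (62.5%), against 12.2% of the 14058 windows of the genes tested and 9.23% of all 35116 windows. CCAAT, searched likewise, lay in 57.5% of the windows of the replication genes and in 35.1% of those of the genes tested. Counted by gene, 23 of 31 replication genes had an E2F-type string (74.2%), against 16.3% of the 9563 tested genes that were matched. The sequences below were chosen because the results turn on these genes: POLA1, CDT1, PRIM1 and LIG1 were higher at 24 h than at 1 h in all 5 conditions, E2F1 was called in none of those comparisons, and CDC45, called lower after TiO2-NB, held neither string in any of its 3 windows, of which 1 is printed. Capitals mark the strings or their reverse complements (GCGGGAA and GCGCCAA). A match is a description of letters, not of a site in use. Other E2F-type strings were not searched for, so their absence from a window was not tested.
POLA1 promoter, chrX:24693668-24693967, plus strand: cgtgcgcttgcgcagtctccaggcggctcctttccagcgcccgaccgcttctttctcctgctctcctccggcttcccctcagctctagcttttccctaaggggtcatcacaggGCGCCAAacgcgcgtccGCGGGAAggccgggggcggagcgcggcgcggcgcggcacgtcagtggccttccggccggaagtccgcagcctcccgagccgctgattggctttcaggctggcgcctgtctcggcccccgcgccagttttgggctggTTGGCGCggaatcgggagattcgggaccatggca
CDT1 promoter, chr16:88803539-88803838, plus strand: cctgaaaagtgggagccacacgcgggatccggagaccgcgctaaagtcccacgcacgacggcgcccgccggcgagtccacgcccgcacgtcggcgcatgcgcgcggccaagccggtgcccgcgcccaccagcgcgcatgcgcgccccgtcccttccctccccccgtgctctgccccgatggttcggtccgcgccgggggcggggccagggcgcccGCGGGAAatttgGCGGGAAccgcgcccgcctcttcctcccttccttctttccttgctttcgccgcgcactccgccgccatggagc
PRIM1 promoter, chr12:56752274-56752573, minus strand: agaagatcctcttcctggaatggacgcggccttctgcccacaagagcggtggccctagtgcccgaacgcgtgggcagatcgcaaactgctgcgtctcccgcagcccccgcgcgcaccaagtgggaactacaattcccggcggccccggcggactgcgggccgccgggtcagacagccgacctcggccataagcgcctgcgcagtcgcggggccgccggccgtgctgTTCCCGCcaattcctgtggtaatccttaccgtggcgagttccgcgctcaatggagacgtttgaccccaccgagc
LIG1 promoter, chr19:48170295-48170594, minus strand: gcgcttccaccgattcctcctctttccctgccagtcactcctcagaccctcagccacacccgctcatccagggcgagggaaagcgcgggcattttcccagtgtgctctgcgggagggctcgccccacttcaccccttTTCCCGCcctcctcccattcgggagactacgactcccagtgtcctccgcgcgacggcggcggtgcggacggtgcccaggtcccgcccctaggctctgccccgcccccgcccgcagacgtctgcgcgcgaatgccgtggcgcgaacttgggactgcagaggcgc
E2F1 promoter, chr20:33686336-33686635, minus strand: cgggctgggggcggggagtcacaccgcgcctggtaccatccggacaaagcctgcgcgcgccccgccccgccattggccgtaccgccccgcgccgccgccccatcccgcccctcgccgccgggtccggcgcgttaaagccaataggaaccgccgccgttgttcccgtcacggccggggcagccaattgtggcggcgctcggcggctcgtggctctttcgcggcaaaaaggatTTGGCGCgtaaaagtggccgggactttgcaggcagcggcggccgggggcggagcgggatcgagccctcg
CDC45 promoter, chr22:19479670-19479969, plus strand: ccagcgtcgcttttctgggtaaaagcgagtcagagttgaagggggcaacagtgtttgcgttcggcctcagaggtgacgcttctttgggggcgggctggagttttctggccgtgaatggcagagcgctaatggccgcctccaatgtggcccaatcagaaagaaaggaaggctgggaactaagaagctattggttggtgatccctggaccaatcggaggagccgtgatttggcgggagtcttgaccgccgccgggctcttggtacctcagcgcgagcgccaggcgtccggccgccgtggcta

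Each array's median over the table lay between 7.15 and 7.21 on the log2 scale, and within every group the arrays correlated at 0.995 or above. The simple-epithelial keratins KRT8 and KRT18 were bright (means 11.67 and 12.92 over the 30 arrays), as the label epithelial implies. With CDH1 (7.93), 3 of 5 epithelial markers lay above the table's median of 7.18, while EPCAM (6.90) and KRT19 (5.89) lay below it. Of the 4 basal markers measured 2 lay above it, ITGA6 (8.93) and the keratin KRT5 (7.24, near the median). The basal keratin KRT14 (3.94) and LAMB3 (6.04) lay below it. Markers of other cell types were mostly below the median: it was exceeded by 1 of 5 fibroblast markers (the collagen COL1A1, 8.02), 1 of 3 immune markers (CD14, 7.71), 1 of 3 alveolar markers (the surfactant protein SFTPC, 7.75) and none of the 3 endothelial, 2 secretory and 2 ciliated markers measured. The pan-leukocyte phosphatase PTPRC averaged 3.50, the endothelial cadherin CDH5 3.96, the fibroblast proteoglycan LUM 2.59 and the club cell secretoglobin SCGB1A1 4.35. TP63 and KRT17 were not analysed here.

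**Figure D1:**
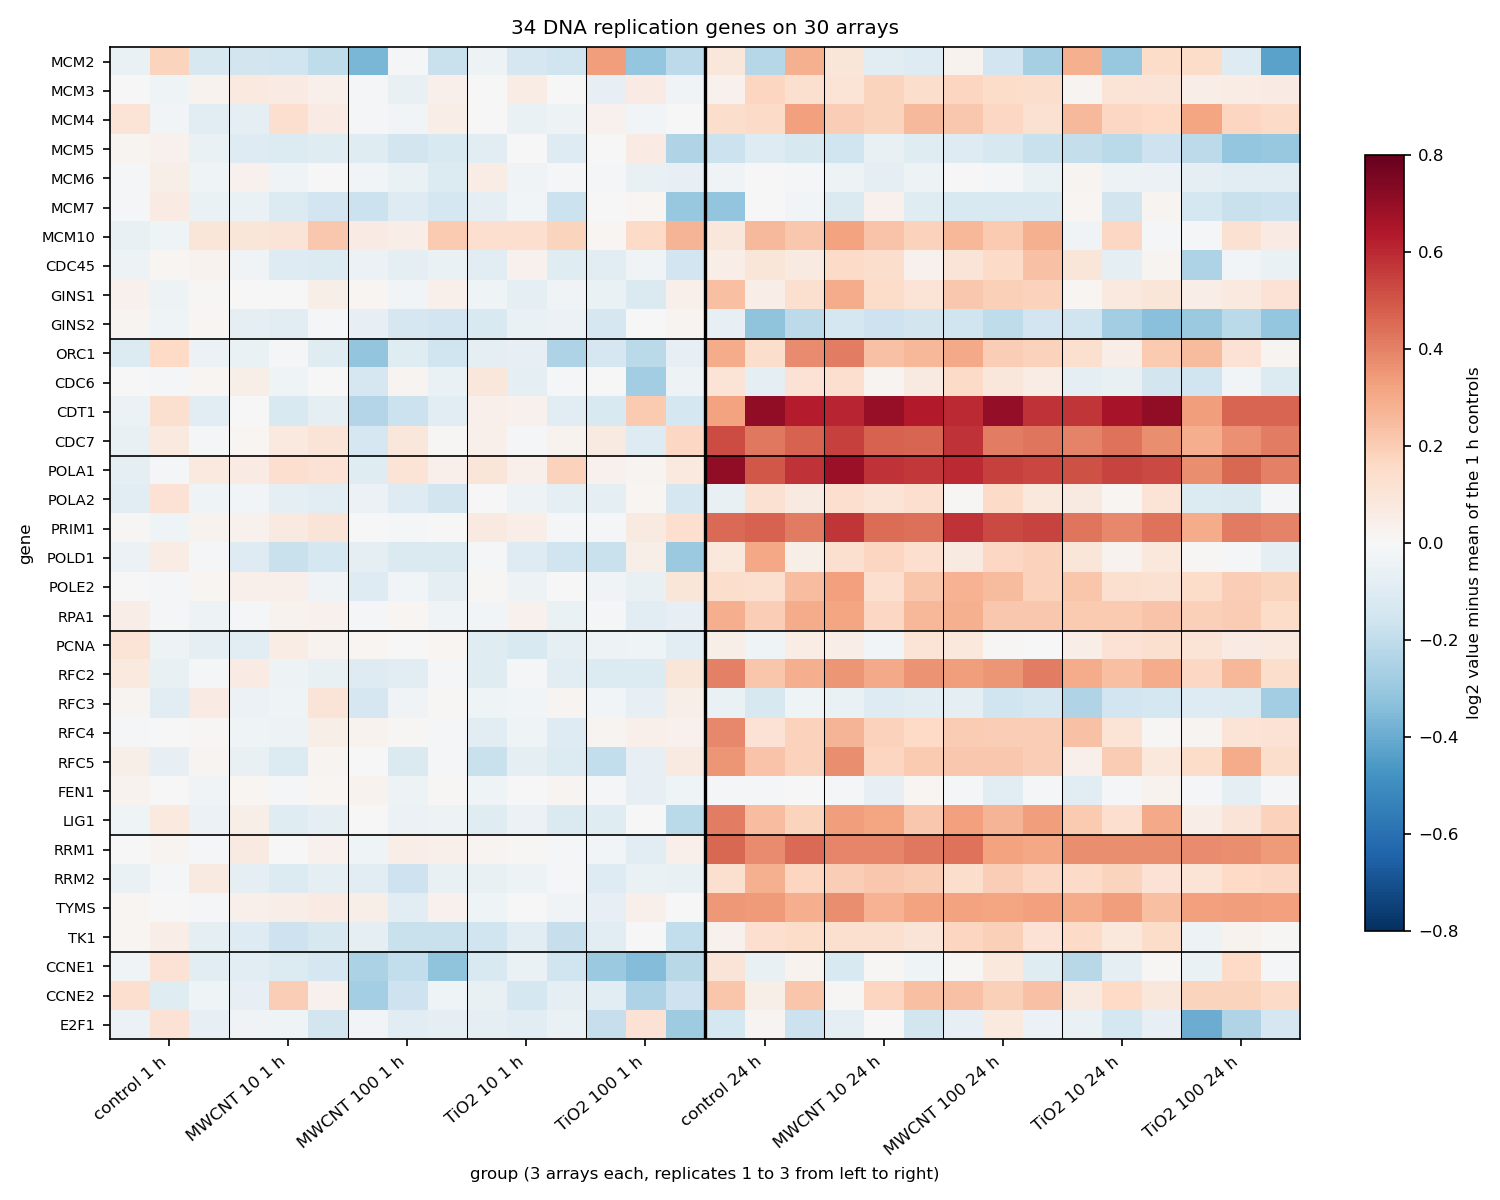
Heatmap of the 34 replication genes (lines, in order of role) on the 30 arrays (columns, 3 per group). Colour is each array's log2 value minus the gene's mean in the 1 h controls, from -0.8 (blue) to 0.8 (red), and the 24 h columns are redder for POLA1, CDT1, CDC7, PRIM1 and RRM1 in every condition.

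The largest differences among the replication genes were between the times of collection, and they were seen in unexposed flasks too. In the control cultures 17 of the 34 genes were higher at 24 h than at 1 h, 1 was lower and 16 did not pass the test (limma, Benjamini-Hochberg adjusted p under 0.05 over all genes tested). Of all genes tested 31.7% were called in this comparison, 19.3% higher and 12.4% lower. The median difference of the replication genes was 0.16 on the log2 scale against -0.01 for all genes. The 4 exposed conditions were compared in the same way, a choice made after the control result had been seen. With MWCNT 10 µg/ml 20 genes were higher and none lower, where 25.8% of all genes were called, 16% higher and 9.83% lower. With MWCNT 100 µg/ml 22 were higher and none lower (28.3% of all genes, 18.8% higher and 9.55% lower). With TiO2-NB 10 µg/ml 18 were higher and 2 lower (27.6%, 14.5% higher and 13.1% lower), and with TiO2-NB 100 µg/ml 17 were higher and 3 lower (32.6%, 17.8% higher and 14.8% lower). The 5 comparisons share no arrays. In all 5, 13 replication genes were higher, where 7.9% of all genes tested were, and 25 were higher in at least 1, where 31% of all genes were. None was lower in all 5 (5.82% of all genes), and 3 were lower in at least 1 (22.4%). These are levels in bulk RNA, in which fewer cells of a type and less RNA per cell cannot be told apart. When only the compared groups entered the fit, the count called fell to 10 in the controls and to 12 at TiO2-NB 100 µg/ml.

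**Figure D2:**
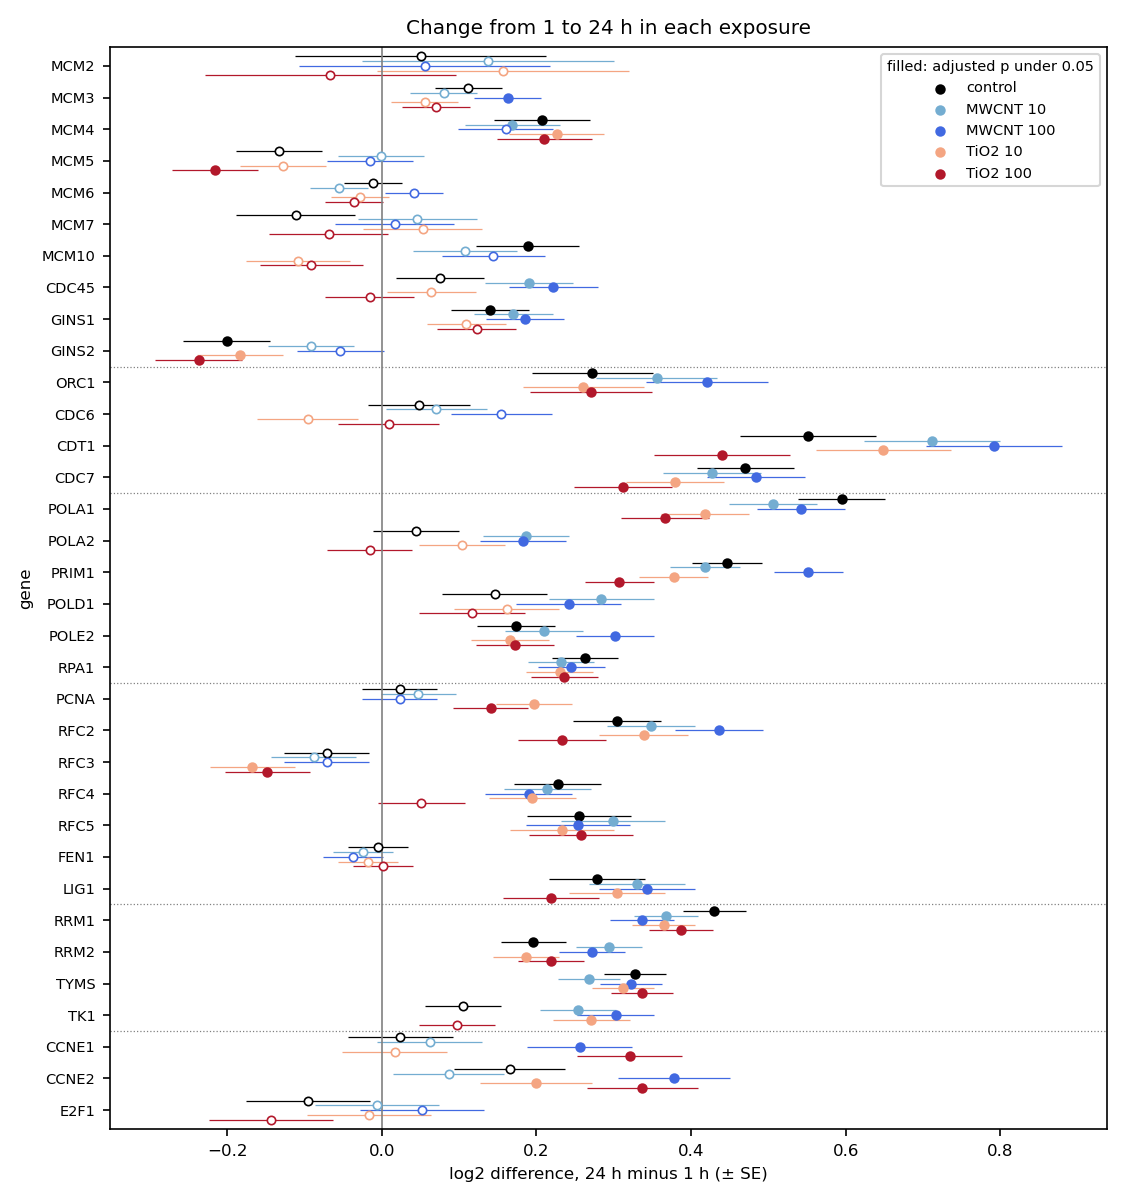
Difference between 24 h and 1 h (log2, point with SE) of each replication gene in the control, MWCNT and TiO2-NB conditions, n = 3 arrays per group. Filled points have a limma adjusted p under 0.05; in the controls POLA1, CDT1, CDC7 and PRIM1 lie farthest to the right, and GINS2 lies left of 0 in each condition.

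Among the origin licensing and firing genes, 3 of 4 were higher at 24 h in every condition. CDT1, the loader of the MCM rings, read 8.47, 8.64 and 8.43 on the 1 h control arrays and 8.84, 9.22 and 9.14 on the 24 h ones. All 3 late arrays lay above all 3 early ones, with replicate 1 the lowest of the late arrays, and the difference was 0.55 ± 0.09 (SE, n = 3 per group, adjusted p = 2.51e-05), or 46.5% on the linear scale. In the flasks with MWCNT 100 µg/ml CDT1 read 8.28, 8.34 and 8.42 at 1 h and 9.11, 9.22 and 9.09 at 24 h, a difference of 0.79 ± 0.09 (adjusted p = 1.13e-07). The smallest change of CDT1 was in TiO2-NB 100 µg/ml, from 8.39, 8.72 and 8.37 to 8.85, 8.98 and 8.98 (0.44 ± 0.09, adjusted p = 0.000384). CDC7, the kinase that fires licensed origins, rose by 0.47 ± 0.06 in the controls, from 10.03, 10.18 and 10.08 to 10.62, 10.51 and 10.57, with no overlap between the times. Its change in the exposed flasks ran from 0.31 to 0.48. ORC1, the largest subunit of the origin recognition complex, rose by 0.27 ± 0.08 in the controls, where the groups overlapped by a narrow margin (8.24, 8.51 and 8.30 against 8.64, 8.49 and 8.73), and by 0.26 to 0.42 in the exposed flasks. CDC6, the ATPase that works with CDT1, was called in none of the 5 conditions, and its differences ran from -0.10 to 0.15.

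The polymerase group was also higher at 24 h. POLA1, the catalytic subunit of polymerase alpha, showed the largest difference of any replication gene in the controls. Its values were 8.87, 8.93 and 9.02 at 1 h and 9.65, 9.44 and 9.52 at 24 h, so the late arrays all lay well above the early ones. The difference was 0.59 ± 0.06 (n = 3 per group, adjusted p = 1.32e-08), or 51.0%. PRIM1, the small catalytic subunit of primase, read 10.63, 10.59 and 10.65 at 1 h and 11.08, 11.09 and 11.04 at 24 h in the controls, a difference of 0.45 ± 0.04 (adjusted p = 2.88e-08) with tight replicates and no overlap. With MWCNT 100 µg/ml PRIM1 went from 10.62, 10.61 and 10.63 to 11.20, 11.15 and 11.16 (0.55 ± 0.04), and with TiO2-NB 100 µg/ml from 10.61, 10.70 and 10.75 to 10.92, 11.04 and 11.02 (0.31 ± 0.04). POLE2, a subunit of polymerase epsilon, rose by 0.17 to 0.30 over the 5 conditions, and RPA1, the large subunit of the protein that coats single-stranded DNA, by 0.23 to 0.26. RPA1 was the most even of the group across conditions. POLA2, the regulatory subunit of polymerase alpha, and POLD1, the catalytic subunit of polymerase delta, rose in both MWCNT conditions (POLA2 by 0.18 and 0.19, POLD1 by 0.24 and 0.28) and were not called in the controls (0.04 and 0.15) or after TiO2-NB (-0.02 and 0.10 for POLA2, 0.12 and 0.16 for POLD1).

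Of the 7 genes of the clamp, its loader, flap nuclease and ligase, 4 rose in the controls. RFC2, a subunit of the clamp loader, read 10.86, 10.72 and 10.77 at 1 h and 11.18, 11.00 and 11.07 at 24 h (0.30 ± 0.06, adjusted p = 0.000182). LIG1, the ligase that seals Okazaki fragments, read 10.12, 10.23 and 10.11 and then 10.57, 10.40 and 10.34 (0.28 ± 0.06, adjusted p = 0.00108). Neither gene's times overlapped, and both rose in all 4 exposed conditions, RFC2 by 0.23 to 0.44 and LIG1 by 0.22 to 0.34. RFC5, another loader subunit, rose by 0.23 to 0.30 over the 5 conditions. RFC4 rose by 0.19 to 0.23 in 4 of them and was not called with TiO2-NB 100 µg/ml (0.05). RFC3 differed in sign from the other loader subunits. It was lower at 24 h in TiO2-NB 10 µg/ml, where it read 10.65, 10.66 and 10.71 and then 10.44, 10.53 and 10.54 (-0.17 ± 0.05, adjusted p = 0.0244), and in TiO2-NB 100 µg/ml (-0.15), and it was negative without passing the test in the other 3 conditions. PCNA, the clamp itself, was called only in the TiO2-NB conditions, higher by 0.20 and 0.14, and lay at 0.02 to 0.05 in the others. FEN1, the flap nuclease, was called in none, with differences from -0.04 to 0.00.

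All 4 genes of nucleotide supply were higher at 24 h in some conditions, and 3 of them in all 5. RRM1, the large subunit of ribonucleotide reductase, read 12.19, 12.21 and 12.18 in the 1 h controls and 12.65, 12.57 and 12.64 at 24 h. The spread within each time was far smaller than the gap between them, 0.43 ± 0.04 (adjusted p = 1.42e-08) or 34.7%. TYMS, which makes thymidylate, read 12.52, 12.50 and 12.49 and then 12.85, 12.85 and 12.80 (0.33 ± 0.04, adjusted p = 6.81e-07), and its change stayed between 0.27 and 0.34 in the 5 conditions. TK1, the thymidine salvage kinase, rose with both MWCNT doses (0.25 and 0.30) and with TiO2-NB 10 µg/ml (0.27), and was not called in the controls (0.10) or with TiO2-NB 100 µg/ml (0.10). RRM2, the small and cell-cycle regulated subunit of the reductase, rose by 0.19 to 0.29 on the probe set tested. Its other probe set did not move the same way: it lay at -0.09 in the controls and at -0.17 and -0.10 with MWCNT 10 and 100 µg/ml, and with the median over probe sets RRM2 was called in none of the 5 conditions. For RFC5 a probe set with a lower mean likewise lay at -0.02 in the controls while another lay at 0.15, and with the median over probe sets RFC5 was not called with TiO2-NB 10 µg/ml (0.12, adjusted p = 0.0586).

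Of the 10 genes of the helicase and its activators, 3 rose and 1 fell in the controls. The ring subunits MCM2, MCM6 and MCM7 were called in none of the 5 conditions. MCM2 varied widely between the arrays of a group. In the controls it read 11.34, 11.57 and 11.27 at 1 h and 11.48, 11.17 and 11.68 at 24 h. The 95% interval of its difference ran from -0.29 to 0.39. MCM4 rose in 4 conditions by 0.17 to 0.23 and did not pass with MWCNT 100 µg/ml (0.16, adjusted p = 0.0532). Its call with MWCNT 10 µg/ml held in 4 of 12 alternative settings. MCM3 rose only with MWCNT 100 µg/ml (0.16). MCM5 was lower only with TiO2-NB 100 µg/ml, where it went from 11.15, 11.21 and 10.91 to 10.94, 10.84 and 10.85 (-0.22 ± 0.06, adjusted p = 0.00422), with replicate 3 of the early arrays inside the range of the late ones. Of the activators, GINS1 rose in the controls (0.14) and with MWCNT (0.17 and 0.18). CDC45 rose with MWCNT (0.19 and 0.22) and lay at -0.02 to 0.08 in the other conditions. MCM10, which helps to start the assembled helicase, rose in the controls (0.19) and lay at -0.11 and -0.09 after TiO2-NB without passing. The MCM10 call in the controls held in 6 of 12 alternative settings. GINS2 fell in the controls. Its values were 10.42, 10.36 and 10.42 at 1 h and 10.33, 10.08 and 10.19 at 24 h, with no overlap, a difference of -0.20 ± 0.06 (adjusted p = 0.00739). It was also lower with TiO2-NB at 10 µg/ml (-0.18) and 100 µg/ml (-0.24) and lay at -0.09 and -0.05 with MWCNT, where it was not called.

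Cyclin E and E2F1 made up the last group. In the controls none of the 3 was called between the times. CCNE1 rose with MWCNT 100 µg/ml (0.26 ± 0.07, adjusted p = 0.00511) and with TiO2-NB 100 µg/ml (0.32 ± 0.07, adjusted p = 0.000753), and lay at 0.02 and 0.06 with the 10 µg/ml doses. CCNE2 rose with the same high doses (0.38 and 0.34) and with TiO2-NB 10 µg/ml (0.20). The call of CCNE2 with TiO2-NB 10 µg/ml held in 5 of 12 alternative settings. It was lost with the median over probe sets (0.12, limma adjusted p = 0.197). At 1 h CCNE1 lay below every control array in both high-dose groups. E2F1 itself was called in no condition, with differences from -0.14 to 0.05.

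Set against the promoter search, 12 of the 13 genes that were higher in all 5 conditions had an E2F-type string in at least 1 window, RFC5 being the other. Among the 6 genes called in no condition, 4 had one and MCM2 and FEN1 did not. Of the 10 matched genes that were higher in 1 to 4 conditions, 5 had a string. The 2 matched genes that were lower in any condition, GINS2 and RFC3, both had one. The groups are small, and this is a description of the windows.

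**Figure D3:**
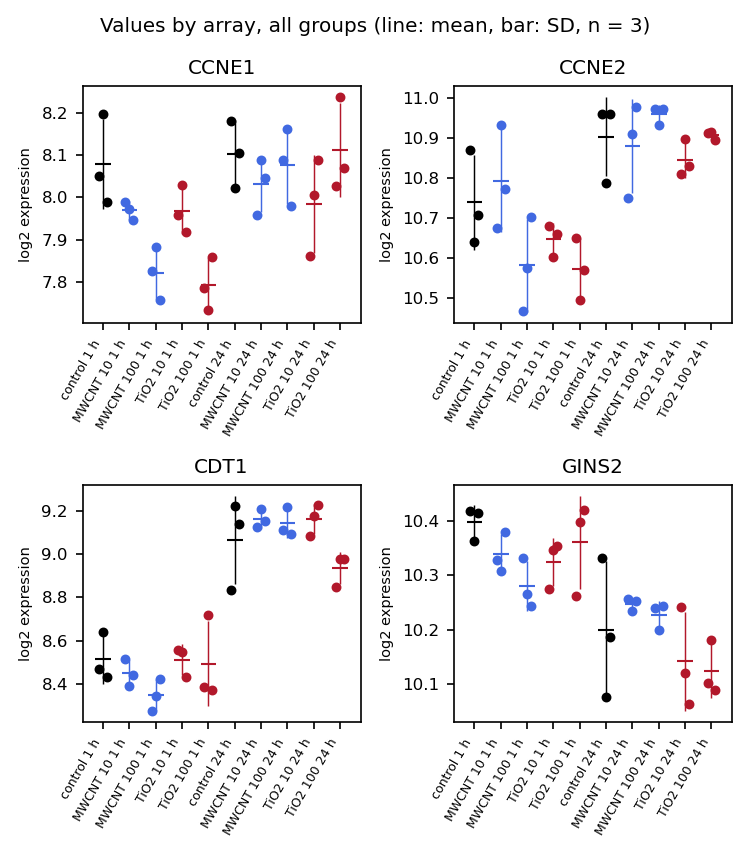
Log2 values of CCNE1, CCNE2, CDT1 and GINS2 on each array in the 10 groups (points; line, mean; bar, SD, n = 3; doses in µg/ml; each gene has its own axis range). CCNE1 is lowest in the MWCNT and TiO2-NB 100 µg/ml groups at 1 h, and CDT1 is higher in all 24 h groups than in the 1 h groups.

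Lists of related genes outside the 34 were read the same way. Of 35 other replication fork and origin genes that were measured, 20 were higher at 24 h in the controls and 1 was lower, where 19.3% of all genes were higher and 12.4% lower. HELLS, a chromatin remodelling helicase, had the largest difference (1.63 ± 0.24), followed by POLD3, a subunit of polymerase delta (0.63), the scaffold WDHD1 (0.58) and GINS4 (0.51). Of 16 S-phase checkpoint and homologous repair genes 11 were higher and none lower, led by BARD1 (0.80) and FANCI (0.68), and of 28 mitosis genes 16 were higher and none lower, led by NDC80 (0.47), a kinetochore subunit, and the proliferation marker MKI67 (0.41). The other nucleotide supply genes gave 5 higher and 1 lower of 14. Genes of G1/S control were called in both directions, 7 higher and 7 lower of 27: the cyclin CCND1 (-2.82), MYC (-2.42) and the kinase inhibitor CDKN1A (-0.69) were lower and E2F8 (0.73) was higher. The mean of the 5 epithelial markers ranged from 9.25 to 9.34 on the 1 h control arrays and from 9.00 to 9.07 on the 24 h ones, and the mean of the 3 immune markers from 5.87 to 5.95 and from 5.61 to 5.81. Among the immune markers CD14 averaged 7.97 at 1 h and 7.57 at 24 h, and PTPRC 3.50 and 3.43. Their part in the differences over time was not tested.

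After 1 h of exposure hardly any replication gene differed from the control, and the 1 that did was cyclin E1. CCNE1, the cyclin that activates CDK2 at the start of S phase, read 8.05, 8.20 and 7.99 in the controls and 7.78, 7.73 and 7.86 with TiO2-NB 100 µg/ml. All 3 exposed arrays lay below all 3 controls, and the difference was -0.29 ± 0.07 (n = 3 per group, limma adjusted p = 0.0201), or -18.0% on the linear scale. It was the only replication gene called in this comparison, in which 2.12% of all genes were called, 1.74% higher and 0.385% lower. With MWCNT 100 µg/ml CCNE1 read 7.83, 7.88 and 7.76, again below every control array. The difference of -0.26 ± 0.07 did not pass (adjusted p = 0.0526), so limma called no replication gene there, while 1.7% of all genes were called. An unadjusted p under 0.05 was found for 7 replication genes, and for 1427 of all 11963 genes. The 10 µg/ml doses left CCNE1 nearer the controls, at 7.99, 7.97 and 7.95 with MWCNT and 7.96, 8.03 and 7.92 with TiO2-NB. Limma called no replication gene at these doses (0.0669% of all genes called with MWCNT and 0.711% with TiO2-NB). Unadjusted p was under 0.05 for 3 and 2 replication genes, and for 1383 and 904 of all 11963 genes. At 100 µg/ml 27 of 34 genes were below the control with either particle, with medians of -0.06 for MWCNT and -0.05 for TiO2-NB. Of all 11963 genes 7101 and 7580 were below it, with medians of -0.02 and -0.03. With cyclic loess 21 and 23 of the 34 were below it, with medians of -0.04 and -0.03. These comparisons share the 1 h control arrays. The call of CCNE1 with TiO2-NB was lost without control replicate 1 (adjusted p = 0.0554), without control replicate 2 (0.166), without TiO2-NB replicate 1 (0.0692) or 2 (0.0669, when another gene was called in its place), and when the other groups were left out of the fit (0.282). With MWCNT, CCNE1 was called without control replicate 3 (0.0365).

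CCNE2, the second cyclin E, lay below the controls without passing the test in either high-dose group. It read 10.87, 10.64 and 10.71 in the 1 h controls, 10.47, 10.57 and 10.70 with MWCNT 100 µg/ml and 10.65, 10.49 and 10.57 with TiO2-NB 100 µg/ml, so the groups overlapped (-0.16 and -0.17, adjusted p = 0.381 and 0.366). Its other probe set lay lower by more, at -0.23 and -0.30. Whether the TiO2-NB 100 µg/ml difference itself changed from 1 to 24 h was tested as an interaction. No replication gene passed (limma, 2.2% of all genes called), and 5 had an unadjusted p under 0.05, as did 2105 of all 11963 genes. The largest value was that of CCNE1, 0.30 ± 0.10 (adjusted p = 0.106), which passed with array weights (adjusted p = 0.0465). Without TiO2-NB 1 h replicate 1 another replication gene was called. For MWCNT 100 µg/ml none passed either (0.669% of all genes called), and CDT1 had the largest value, 0.24 ± 0.12. There 3 replication genes and 849 of all 11963 genes had an unadjusted p under 0.05.

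At 24 h TiO2-NB 100 µg/ml left 2 replication genes lower than the controls, CDC45 (-11.9% on the linear scale) and POLA1 (-12.0%). CDC45, which holds the active helicase together, read 10.64, 10.69 and 10.66 in the controls and 10.34, 10.57 and 10.53 after TiO2-NB. All 3 exposed arrays were lower, replicate 1 by the most, and the difference was -0.18 ± 0.06 (n = 3 per group, limma adjusted p = 0.0367). POLA1 read 9.65, 9.44 and 9.52 in the controls and 9.31, 9.40 and 9.34 after TiO2-NB, again without overlap, a difference of -0.18 ± 0.06 (adjusted p = 0.0344). In this comparison 13.2% of all genes were called and 8.89% were lower, so 2 of 34 is not a larger share than among the genes at large. No replication gene was higher, where 4.3% of all genes were. The other 32 did not pass. An unadjusted p under 0.05 was found for 9 of the 34, and for 3670 of all 11963 genes. Of the 34 differences 28 were negative, with a median of -0.09 where that of all genes was -0.03. All 34 genes have means above the table's median, and the 6923 genes that do had a median of -0.07. With cyclic loess 28 were negative, with a median of -0.05 where that of all genes was -0.01. The 3 exposed arrays lay below the 3 controls in 9 of the 34 genes, as they did in 20% of all genes. The genes nearest to a call were LIG1 (-0.17, adjusted p = 0.0748) and RFC4 (-0.15, adjusted p = 0.0825), and all 4 licensing genes were negative (-0.15 to -0.11).

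The count of 2 depended on single arrays and on settings. No replication gene was called without control replicate 1, without TiO2-NB replicate 1 or 3, with cyclic loess normalisation or when the other groups were left out of the fit, and 10 were called with array weights. Without control replicate 3 neither CDC45 (adjusted p = 0.0640) nor POLA1 (0.0526) passed and another gene did, and without control replicate 2 CDC45 did not pass (0.0858). Of 12 alternative settings, CDC45 was called in 5 and POLA1 in 6. Without TiO2-NB replicate 1, the lowest array of CDC45, its difference was -0.11 (adjusted p = 0.207). Beside this, the mean of the 5 epithelial markers ranged from 9.00 to 9.07 on the 24 h control arrays and from 8.54 to 8.72 after TiO2-NB 100 µg/ml, that of the 5 fibroblast markers from 5.31 to 5.34 and from 5.46 to 5.52, and that of the 3 endothelial markers from 4.87 to 4.94 and from 5.03 to 5.12. Of the fibroblast markers COL1A1 averaged 7.97 in the controls and 8.31 after TiO2-NB, DCN 5.44 and 5.85, and LUM 2.57 and 2.52. The endothelial CDH5 averaged 3.88 and 4.03, and the secretory mucin MUC5AC 6.61 and 6.99. The part of these shifts in the result was not tested.

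**Figure D4:**
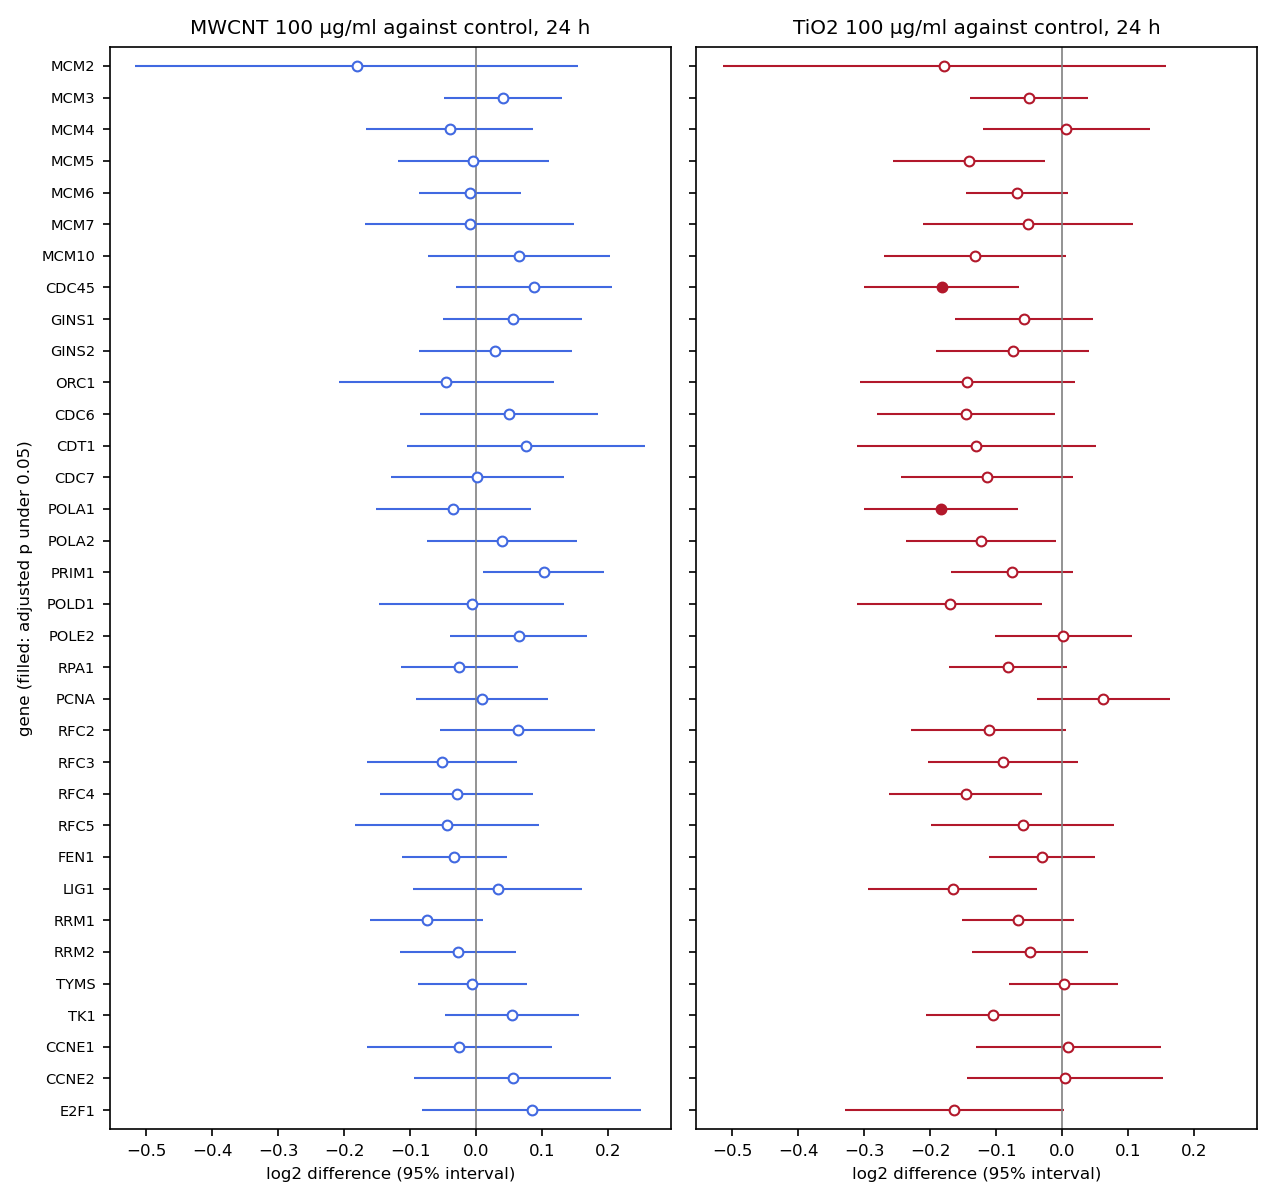
Difference of each replication gene from the 24 h control (log2, point with 95% interval from limma, n = 3 arrays per group) for MWCNT 100 µg/ml (left) and TiO2-NB 100 µg/ml (right). The filled points, CDC45 and POLA1 with TiO2-NB, have an adjusted p under 0.05; 28 of 34 points lie below 0 with TiO2-NB and 17 with MWCNT.

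TiO2-NB at 10 µg/ml gave no called replication gene at 24 h by limma, where 6.05% of all genes were called. An unadjusted p under 0.05 was found for 3 of the 34, and for 3157 of all 11963 genes. Of the 34 differences 28 were negative, as were those of 6881 of all genes. The median was -0.05 where that of all genes was -0.03 and that of genes with means above the table's median -0.06. With cyclic loess 19 of the 34 were negative, with a median of -0.01. The largest difference with TiO2-NB 10 µg/ml was that of MCM10, which read 9.97, 10.14 and 10.09 in the controls and 9.85, 10.04 and 9.87 after exposure. Its groups overlapped (-0.15 ± 0.07, adjusted p = 0.164). CDT1 went the other way with a wide interval (0.10, 95% interval -0.09 to 0.28). With array weights 3 replication genes were called.

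The nanotubes left the replication genes close to the controls at 24 h. Limma called none at either dose, and none of all 11963 genes (0%). At 10 µg/ml no replication gene had an unadjusted p under 0.05, where 389 of all genes did. The differences of the replication genes ran from -0.08 (MCM2) to 0.10 (CDT1). At 100 µg/ml 1 replication gene had an unadjusted p under 0.05, where 661 of all genes did. It was PRIM1, at 11.20, 11.15 and 11.16 against 11.08, 11.09 and 11.04 in the controls (0.10 ± 0.04, adjusted p = 0.893). The differences at this dose ran from -0.18 (MCM2) to 0.10. The lowest and highest limits of the 95% intervals were -0.52 (MCM2) and 0.26 (CDT1). Each is the end of a single gene's interval and not a limit of detection for the other genes. With 3 arrays a group, changes within a gene's own interval are not excluded. CDC45 was among the genes whose 3 exposed arrays all lay above the controls (10.69, 10.74 and 10.82, a difference of 0.09, adjusted p = 0.948). With array weights 3 replication genes and 722 of all genes were called at 100 µg/ml, and 8 of all genes at 10 µg/ml. The absence of calls therefore depended on how the arrays were weighted. The comparison of MWCNT doses gave no call in any gene (0%), and no replication gene had an unadjusted p under 0.05, where 268 of all genes did. The TiO2-NB doses gave none among the replication genes, where 0.986% of all genes were called. Between these doses 5 replication genes had an unadjusted p under 0.05, as did 1302 of all genes. The largest difference, 100 against 10 µg/ml, was that of CDT1 at -0.23 ± 0.09.

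Set directly against each other at 100 µg/ml for 24 h, the particles differed in 6 replication genes, each higher with MWCNT than with TiO2-NB. They were spread over 5 of the 6 roles: CDC45 in the helicase, PRIM1 in the primase, RFC2 and LIG1 in lagging-strand synthesis, TK1 in thymidine salvage and the transcription factor E2F1. In this comparison 12.2% of all genes were called, 7.7% higher and 4.55% lower with MWCNT. It uses the same TiO2-NB arrays as the comparison with the controls above, so the values of each are given side by side and not as independent of each other. CDC45 had the largest difference, with 10.69, 10.74 and 10.82 after MWCNT against 10.34, 10.57 and 10.53 after TiO2-NB. The MWCNT arrays all lay above the TiO2-NB ones, by 0.27 ± 0.06 (n = 3 per group, limma adjusted p = 0.00423) or 20.6%. E2F1 read 8.92, 9.07 and 8.94 after MWCNT and 8.59, 8.75 and 8.85 after TiO2-NB, a difference of 0.25 ± 0.08 (adjusted p = 0.0447). The controls (8.85, 9.01 and 8.82) overlapped both.

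The other 4 called genes showed smaller differences with no overlap between the particles. LIG1 read 10.48, 10.42 and 10.49 after MWCNT and 10.21, 10.26 and 10.34 after TiO2-NB (0.20 ± 0.06, adjusted p = 0.0374). PRIM1 read 11.20, 11.15 and 11.16 against 10.92, 11.04 and 11.02 (0.18 ± 0.04, adjusted p = 0.0126). RFC2 read 11.11, 11.13 and 11.19 against 10.95, 11.05 and 10.92 (0.17 ± 0.06, adjusted p = 0.0463). TK1 read 11.62, 11.64 and 11.57 against 11.41, 11.48 and 11.46 (0.16 ± 0.05, adjusted p = 0.0363). For each of the 4 the control arrays overlapped the MWCNT or the TiO2-NB arrays or lay between them. Unadjusted p was under 0.05 for 16 of the 34 genes, and for 3445 of all 11963 genes. In 22 of the 34 all 3 MWCNT arrays lay above all 3 TiO2-NB arrays, as they did in 25.2% of all genes. Over the 34 genes 27 differences were positive, as were 6851 of all 11963, with a median of 0.10 where that of all genes was 0.03. All 34 genes have means above the table's median. Against the 24 h control the 6923 genes that do had medians of -0.07 with TiO2-NB and -0.01 with MWCNT, so all genes are not a like background. The exceptions below 0 were small, the largest being PCNA at -0.05. Of 12 alternative settings, CDC45 was called in 11, PRIM1 in 8, LIG1 in 6, TK1 and E2F1 in 4 each and RFC2 in 3. The exception for CDC45 was the fit of only the compared groups (adjusted p = 0.0507). Without MWCNT replicate 1, 2 replication genes were called, of these 6 only CDC45 (PRIM1, adjusted p = 0.0511). Without MWCNT replicate 2 or 3 the calls were CDC45 and PRIM1. Without TiO2-NB replicate 1, and with cyclic loess, the 1 call was CDC45, and in the fit of the compared groups alone it was LIG1, while array weights gave 15.

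At 10 µg/ml for 24 h no replication gene differed between the particles (limma; 5 at an unadjusted p under 0.05, 4.88% of all genes called; 1 without TiO2-NB replicate 2). All 3 MWCNT arrays lay above all 3 TiO2-NB arrays in 15 genes, where they did in 18.7% of all genes, and the largest difference was that of MCM10 (0.20 ± 0.07, adjusted p = 0.0737). At 1 h no replication gene differed at either dose, and 0.00836% and 0.0167% of all genes were called at 10 and 100 µg/ml. No replication gene had an unadjusted p under 0.05 there, where 1202 and 756 of all 11963 genes did.

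**Figure D5:**
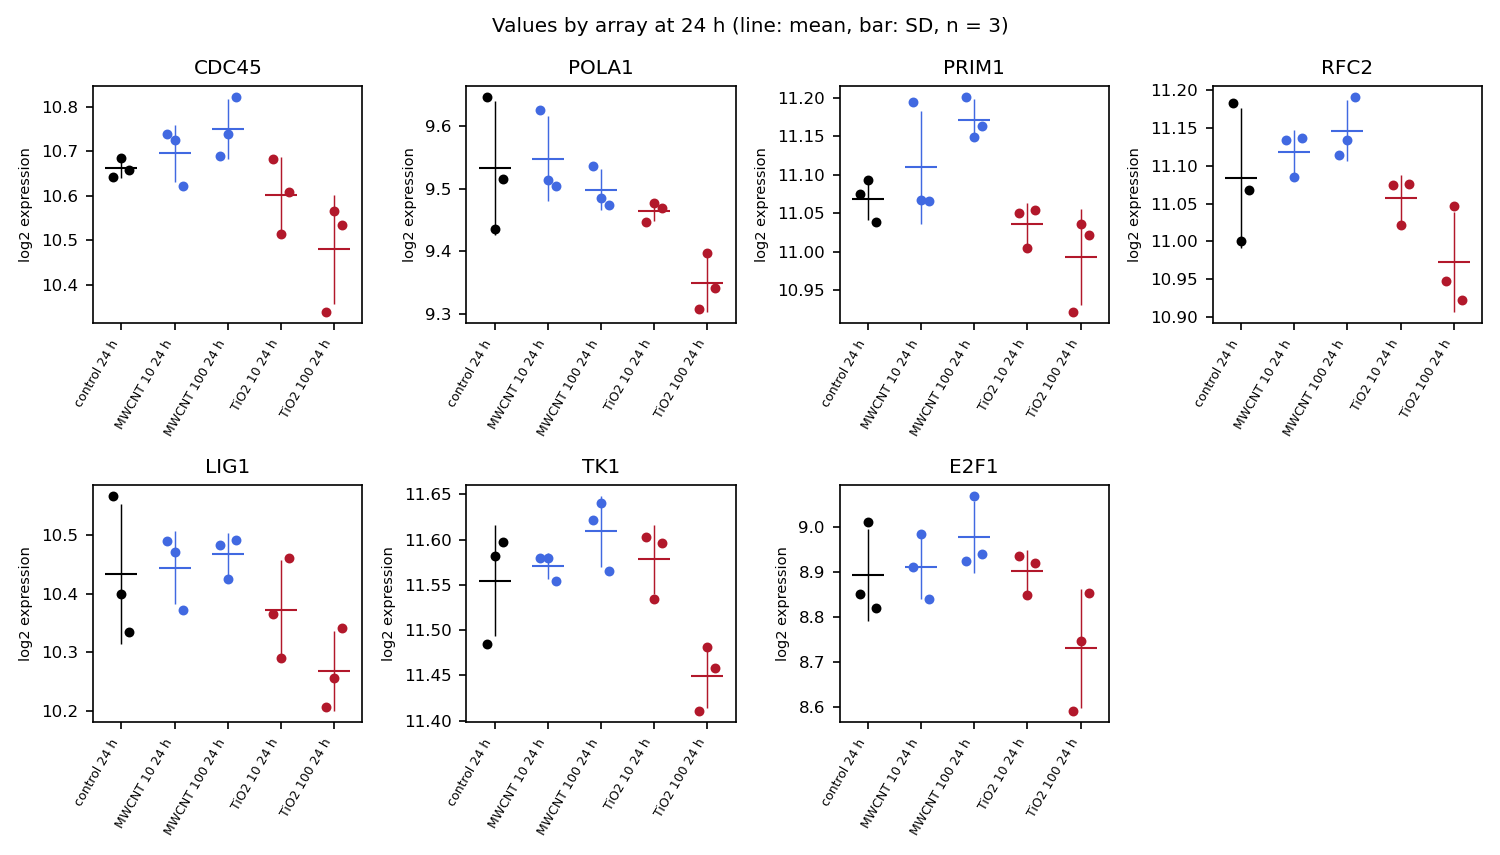
Log2 values of CDC45, POLA1, PRIM1, RFC2, LIG1, TK1 and E2F1 on each 24 h array (points; line, mean; bar, SD, n = 3; doses in µg/ml; each gene has its own axis range). In all 7 genes the MWCNT 100 µg/ml arrays lie above the TiO2-NB 100 µg/ml arrays.

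The related lists give the surroundings of these values at 24 h. With TiO2-NB 100 µg/ml against the control, 3 of 35 other replication fork and origin genes were lower and none higher: the checkpoint mediator CLSPN (-0.28), POLD3 (-0.19) and ORC5 (-0.15). Of all genes 8.89% were lower and 4.3% higher in this comparison. Of 14 other nucleotide supply genes 2 were lower, CTPS1 (-0.22) and DTYMK (-0.18), of 16 checkpoint and repair genes 3 were lower, CHEK2 (-0.30), BLM (-0.25) and EXO1 (-0.19), and of 28 mitosis genes 1 was lower, MKI67 (-0.17). The G1/S list held calls in both directions, with the inhibitor CDKN1C (-0.41), the ubiquitin ligase subunit SKP2 (-0.27) and the E2F partner TFDP1 (-0.13) lower and E2F4 (0.34) and CDKN1A (0.18) higher. With MWCNT 100 µg/ml no gene of any list was called at 24 h. At 1 h HELLS was higher than the control with MWCNT 100 µg/ml (1.03), TiO2-NB 10 µg/ml (1.30) and TiO2-NB 100 µg/ml (1.33). BARD1, the partner of BRCA1, was higher in the same comparisons (0.56, 0.53 and 0.71). With MWCNT and TiO2-NB at 100 µg/ml the checkpoint kinase WEE1 (0.53 and 0.38) and the kinesin KIF23 (0.35 and 0.33) were higher as well. No other gene of the 5 lists was called against the control at 1 h, where 0.0669% to 2.12% of all genes were.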

How the data were processed

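RNA of 30 samples was hybridised to Affymetrix arrays. The deposited table gives 1 log2 value for each probe set and array. The authors used RMA, per the submitters' processing notes, and its version and settings are not given in the sources used here. Of 22277 probe sets, 62 controls and those without exactly 1 annotated symbol were left out (19064 kept), and 1 probe set per gene, that with the highest mean, gave 11963 genes, with no filter on low values. Depth has no counterpart here, and 3 arrays per group limit the precision.

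Group means were fitted over all 10 groups with limma 3.58.1 (lmFit and eBayes, two-sided) in R 4.3.3, and p-values were adjusted by Benjamini-Hochberg over all genes of a comparison (threshold 0.05). Intervals are 95% intervals of that fit. An exact permutation test of 3 against 3 arrays cannot go below p = 0.1, so none was used. The fit was tested on simulated data with independent noise, equal on every array for a given gene. That test does not cover arrays of unequal quality. Alternatives were cyclic loess, a filter on dim genes, the median over probe sets, a replicate block, array weights (statmod 1.5.0), only the compared groups in the fit, and leaving out each array. Members, lists and comparisons were chosen with earlier results of these data known, and the 4 comparisons over time in exposed cells were added after the control result. Arrays were named for the called members with the largest differences, up to 6 per direction, and otherwise for the largest difference. Promoters were searched with Python 3.11.15, numpy 2.4.6 and pandas 2.3.3, and plots drawn with matplotlib 3.10.9.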

Additional observations from a re-analysis of the deposited data

How the results depend on the processing

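The counts of replication genes called over time were within 1.5 times of the reported ones under each alternative except the fit of only the compared groups, which gave 10 in place of 18 in the controls and 12 in place of 20 with TiO2-NB 100 µg/ml. Leaving out 1 array gave 13 to 18 genes in the controls, 17 to 19 and 21 to 22 with MWCNT 10 and 100 µg/ml, and 16 to 18 and 17 to 20 with TiO2-NB 10 and 100 µg/ml.

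Counts against the controls and between the particles were less stable. With array weights 3 genes were called for MWCNT 100 µg/ml and 3 for TiO2-NB 10 µg/ml at 24 h (none reported), 10 for TiO2-NB 100 µg/ml (2 reported), 15 for MWCNT against TiO2-NB at 100 µg/ml (6 reported) and 1 for the interaction of TiO2-NB 100 µg/ml (none reported). These weights ran from 0.308 to 4.87 among the 24 h control arrays alone. With cyclic loess the TiO2-NB 100 µg/ml count at 24 h was 0 and that between the particles 1, and with only the compared groups these were 0 and 1 and the TiO2-NB 100 µg/ml count at 1 h was 0. With the filter on dim genes MWCNT 100 µg/ml had 1 call at 1 h. Leaving out 1 array gave 0 to 1 calls for either particle at 100 µg/ml for 1 h and for the interaction of TiO2-NB, 0 to 3 for TiO2-NB 100 µg/ml at 24 h, 1 to 4 between the particles at 100 µg/ml and 0 to 1 at 10 µg/ml. Fewer samples, or fewer arrays to estimate the spread, are part of the last-named settings, and the cause of the other shifts was not tested. Over all genes TiO2-NB 100 µg/ml at 24 h gave 1577 calls, and 815 with cyclic loess, 3081 with array weights and 16 with only the compared groups. MWCNT 100 µg/ml at 24 h gave 0 calls over all genes, and 722 with array weights.

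The replicate number was tried as a block, although arrays with the same number did not deviate together (mean correlation of deviations 0.00278 over 135 pairs of arrays, from -0.264 to 0.437), so it pairs no samples. The replicate block gave 1 call for MWCNT 100 µg/ml at 1 h, 2 for TiO2-NB 100 µg/ml and 7 for MWCNT against TiO2-NB at 24 h, and 18 for the controls over time. Of the differences of named members under the alternatives 1319 kept their direction and their side of the threshold, 149 lost the call and 7 gained it. The 1 that turned was CDT1 with MWCNT 10 µg/ml at 24 h, from -0.019 to 0.174 when 1 array was left out (-0.019 without control replicate 1), and it was called in none of these. With 3 arrays per group small differences stay within the intervals given.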
